A study of Mus musculus with 6 samples.

Results

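Hepatokines are proteins that the liver secretes into the blood and that act on other organs, or on the liver itself, as hormones do. Described here are the transcripts of 10 of them, *Ahsg*, *Fetub*, *Lect2*, *Gdf15*, *Inhbe*, *Inhbc*, *Tsku*, *Angptl4*, *Angptl6* and *Angptl8*, chosen by gene symbol from the 54446 genes listed in the deposited tables. The livers came from 3 wild-type (WT) mice and 3 *Fmo5*-/- mice, in which the *Fmo5* gene is disrupted throughout the body and not in liver alone. All were males of 32 weeks on a C57BL/6 background (C57BL/6J in the study's methods), with free access to standard chow, and 1 RNA-seq library of single reads was made from each liver. FMO5 is a flavin-containing monooxygenase, and the study looked in the liver for what may underlie the leanness of mice that lack it. All 10 hepatokines passed edgeR's filter on low counts, as did 16734 genes in all.

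Secretion by hepatocytes is what these proteins share, whereas their families and targets differ. AHSG and FETUB are fetuins of the cystatin superfamily, LECT2 is a chemotactic plasma protein, and GDF15 and the activin subunits encoded by *Inhbe* and *Inhbc* belong to the TGF-beta superfamily. TSKU, or tsukushi, is a leucine-rich repeat proteoglycan, and the angiopoietin-like (ANGPTL) proteins include inhibitors of lipoprotein lipase, the enzyme that releases fatty acids from circulating triglyceride. Several of these genes are known to respond to feeding, fasting or cellular stress.

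The targeted gene, *Fmo5*, had normalized counts of 39807, 37405 and 30240 in WT mice and of 1071, 1102 and 1194 in *Fmo5*-/- mice. The libraries held between 44886286 and 52338675 counts on genes, and counts were scaled by TMM, the trimmed mean of M values. Hepatocyte markers dominated every library, with *Alb*, *Ttr* and the other 12 markers summing to between 6429620 and 7978450 normalized counts. Markers of Kupffer cells and macrophages summed to between 15705 and 18084 normalized counts in WT livers and to between 23131 and 42583 in *Fmo5*-/- livers, and the log2 fold change was above 0 for all 12 markers, of which *Clec4f* alone passed edgeR's test (adjusted p = 0.0275) and 11 passed that of DESeq2. Without 1 library, edgeR called between 0 and all 12 of these markers, the 12 without *Fmo5*-/- mouse 3. The 11 tested lymphocyte and neutrophil markers also all had a log2 fold change above 0, with a median of 1.26, and summed to between 379 and 579 normalized counts in WT livers and to between 641 and 1570 in *Fmo5*-/- livers. EdgeR called 0 of them, 6 had an unadjusted p under 0.05 and DESeq2 called 3. In bulk liver, fewer cells of a type and less RNA per cell cannot be told apart, and the part of cell composition in the results below was not tested.

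None of the 10 hepatokines passed an adjusted p of 0.05 in edgeR's quasi-likelihood test, against 1.37% of all genes tested. Lower values reached that threshold for 0.693% of genes and higher values for 0.675%. At an unadjusted p under 0.05 there were 2 hepatokines, *Tsku* and *Inhbc*, where 21.8% of all genes lay. DESeq2's Wald test called 1 of the 10, *Tsku*, against 8.96% of the genes to which it gave an adjusted p. The 3 normalized counts of one genotype all lay to one side of those of the other for the same 2 genes, a share below the 27.4% found over all genes tested. With genes under a mean of 500 removed before the scaling, both ranges overlapped and the count was 0. The log2 fold change, *Fmo5*-/- over WT, was below 0 for 6 hepatokines and above 0 for 4, with a median of -0.16 beside a median of 0.01 over all genes. Without WT mouse 2, the median of the 10 hepatokines was -0.028, with 6 again below 0.

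**Figure D1:**
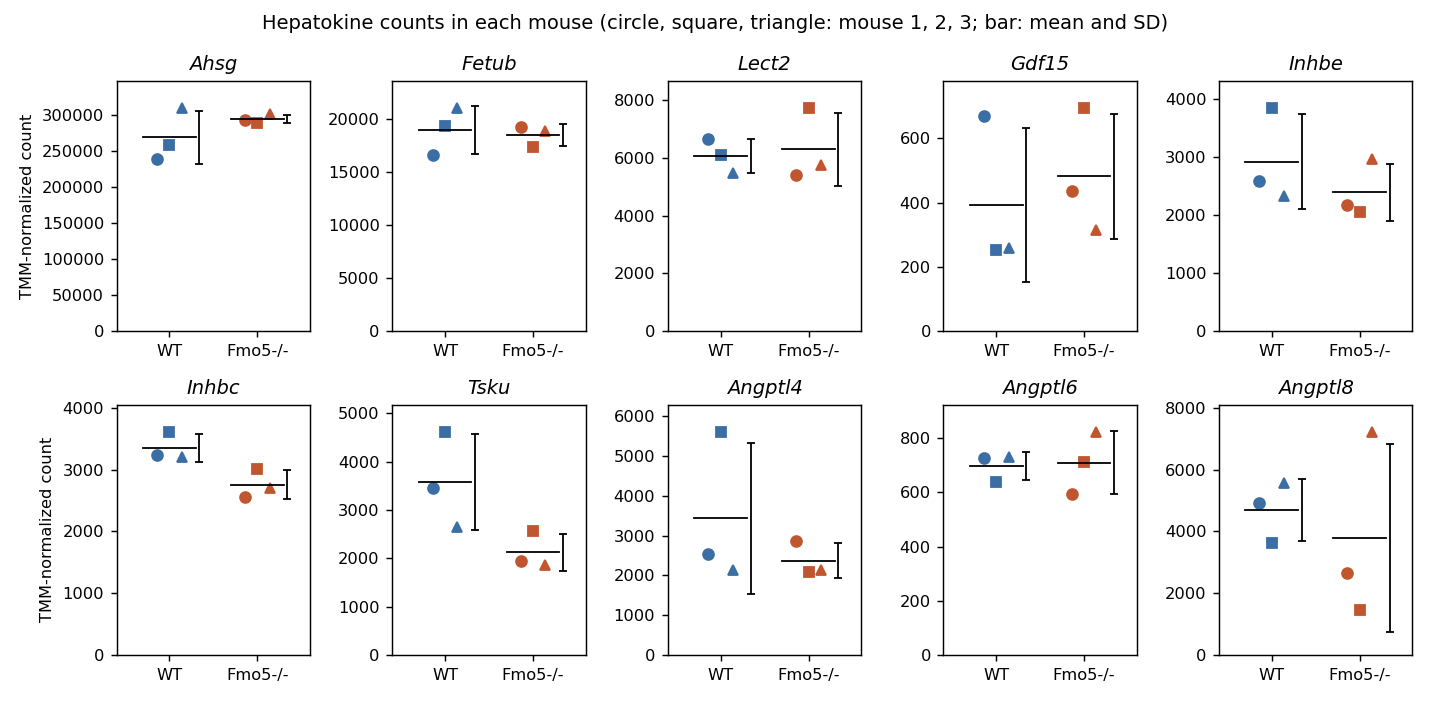
TMM-normalized counts (vertical axis, from 0) of the 10 hepatokines in the 3 WT (blue) and 3 *Fmo5*-/- (orange) mice, with circle, square and triangle for mice 1, 2 and 3, a line for the mean and a bar for the SD. The genotypes lie apart for *Tsku* and *Inhbc*, and overlap for the other 8 genes.

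*Tsku* had the lowest fold change of the 10. TSKU is secreted by hepatocytes and is known for effects on energy expenditure and on cholesterol metabolism. The WT mice had 3457, 4622 and 2650 normalized counts and the *Fmo5*-/- mice had 1936, 2564 and 1859. Each WT value lay above each *Fmo5*-/- value, but the WT mouse with the fewest counts stood close to the *Fmo5*-/- mouse with the most. The log2 fold change was -0.75 (SE 0.22, 95% interval -1.27 to -0.24), with an adjusted p of 0.113 in edgeR and 0.00259 in DESeq2. Without WT mouse 2, the highest of the 6, it was -0.53 in edgeR. Over all 12 alternative settings it ran from -0.93 to -0.53, with adjusted p between 1.48e-05 and 0.247.

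*Inhbc* and *Inhbe* encode the beta C and beta E subunits of activins and are expressed mainly in hepatocytes. They are neighbours on the minus strand of chromosome 10, with *Inhbe* at chr10:127348857-127354411 and *Inhbc* at chr10:127356322-127370431, separated by 1910 bases (GRCm38, the build called mm10). The WT mice had 3241, 3614 and 3199 normalized counts of *Inhbc*, and the *Fmo5*-/- mice had 2547, 3010 and 2696. The ranges did not overlap and both were narrow, so that a small log2 fold change of -0.28 (SE 0.09, 95% interval -0.49 to -0.08) gave an unadjusted edgeR p of 0.0118. The adjusted p was 0.12 in edgeR and 0.0708 in DESeq2.

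*Inhbe* had 2587, 3848 and 2331 normalized counts in WT mice and 2168, 2045 and 2961 in *Fmo5*-/- mice. Its fold change was of the same size as that of *Inhbc*, at -0.29 on the log2 scale, but WT mouse 2 and *Fmo5*-/- mouse 3 stood above the rest and the genotypes overlapped. The SE was 0.22 and the edgeR adjusted p 0.501. Without WT mouse 2, the log2 fold change of *Inhbe* was -0.04. The ratio of *Inhbc* to *Inhbe* counts within a library, which does not depend on the scaling, was 1.19 ± 0.224 (SD, n = 3) in WT and 1.19 ± 0.281 (SD, n = 3) in *Fmo5*-/- mice.

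*Gdf15* encodes a stress-induced hormone that reduces food intake through GFRAL, a receptor of the hindbrain. Counts in the WT mice were 668, 251 and 259, and those in the *Fmo5*-/- mice 435, 695 and 315, all normalized. One mouse of each genotype, at 668 and 695, lay above the others, at 251 to 435, so the variation within a genotype exceeded that between genotypes. The log2 fold change was 0.30 with an SE of 0.50, and its 95% interval reached from -0.97 to 1.56, which leaves room for a change to 0.511 of the WT level or to 2.95 times it. The edgeR adjusted p was 0.789. The log2 fold change turned to -0.065 without *Fmo5*-/- mouse 2, kept its sign in the other 5 fits without 1 library, and was 0.92 without WT mouse 1. *Gfral* had no count in any library, and *Ret*, which encodes its co-receptor, had at most 3.67 normalized counts.

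Of 18 tested genes for other activin and inhibin subunits, receptors, SMAD proteins, convertases and binding proteins, 0 passed edgeR's adjusted threshold, 3 had an unadjusted p under 0.05 and DESeq2 called 1. The smallest p belonged to *Pcsk6*, which encodes a proprotein convertase (log2 fold change -0.44, edgeR adjusted p = 0.128), followed by *Smad2* (-0.27, adjusted p = 0.14) and the activin receptor gene *Acvr2b* (0.46, adjusted p = 0.153).

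*Ahsg* and *Fetub* lie side by side on the plus strand of chromosome 16, at chr16:22891277-22899449 and chr16:22918334-22939778. AHSG, or fetuin-A, inhibits the insulin receptor kinase and binds calcium phosphate in plasma, and FETUB, or fetuin-B, is a protease inhibitor needed for fertilization. *Ahsg* had 238848, 257850 and 309809 normalized counts in WT mice and 292294, 289454 and 300798 in *Fmo5*-/- mice. The *Fmo5*-/- mice fell inside the range of the WT mice and were closer to each other, with a coefficient of variation of 2.01% against 13.7%. For *Ahsg* the log2 fold change was 0.13 (SE 0.11, 95% interval -0.13 to 0.39; edgeR adjusted p = 0.556), and it was 0.057 without WT mouse 1 and 0.25 without WT mouse 3.

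*Fetub* had 16563, 19331 and 21044 normalized counts in WT mice and 19233, 17319 and 18898 in *Fmo5*-/- mice, which again lay within the WT range. Its log2 fold change was -0.04 (SE 0.11, edgeR adjusted p = 0.873), with a 95% interval of -0.28 to 0.20, and was 0.048 without WT mouse 3. In each library *Ahsg* had more than 13 times the counts of *Fetub*. That ratio was 14.4, 13.3 and 14.7 in the WT mice and 15.2, 16.7 and 15.9 in the *Fmo5*-/- mice, higher in 3 of 3. An exact two-sided permutation test gave p = 0.1, the smallest that 3 against 3 allows, and 0.4 after adjustment over the 4 ratios examined.

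LECT2 is a hepatocyte-derived chemotactic factor whose expression rises with liver fat. *Lect2* had 6635, 6095 and 5467 normalized counts in WT mice and 5411, 7730 and 5738 in *Fmo5*-/- mice, with *Fmo5*-/- mouse 2 above the other 5. The log2 fold change was 0.05 (SE 0.14, 95% interval -0.27 to 0.37; edgeR adjusted p = 0.866) and was -0.12 without that mouse.

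**Figure D2:**
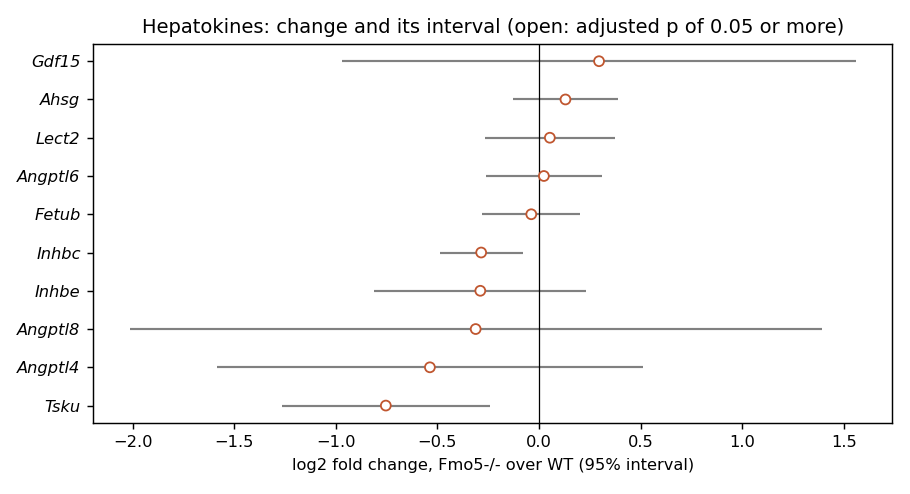
Log2 fold change, *Fmo5*-/- over WT (horizontal axis), of each hepatokine in edgeR, with lines for the 95% interval and open points where the adjusted p was 0.05 or more, as for all 10. The intervals of *Tsku* and *Inhbc* lie below 0, and that of *Angptl8*, from -2.02 to 1.39, is the widest.

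ANGPTL4 and ANGPTL8 both act on lipoprotein lipase, ANGPTL4 mostly in fasting and ANGPTL8 after feeding. *Angptl4* had 2541, 5617 and 2140 normalized counts in WT mice and 2873, 2092 and 2129 in *Fmo5*-/- mice. A single animal, WT mouse 2, stood apart, and the other 5 lay between 2092 and 2873. The log2 fold change of -0.54 (SE 0.41, 95% interval -1.58 to 0.51; edgeR adjusted p = 0.518) became 0.016 without that mouse.

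*Angptl8* lies at chr9:21835510-21837347 within *Dock6*, on the opposite strand and with 0 exon bases shared. It had 4930, 3609 and 5553 normalized counts in WT mice and 2656, 1467 and 7234 in *Fmo5*-/- mice. The 3 WT mice were all inside the range of the *Fmo5*-/- mice, which held both the lowest and the highest value and differed among themselves 4.93-fold. Its log2 fold change was -0.31 (SE 0.65, 95% interval -2.02 to 1.39; edgeR adjusted p = 0.832). It was -1.19 without *Fmo5*-/- mouse 3 and 0.074 without *Fmo5*-/- mouse 2.

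*Angptl6*, which encodes a factor reported to raise energy expenditure, had 726, 638 and 729 normalized counts in WT mice and 594, 710 and 825 in *Fmo5*-/- mice. The *Fmo5*-/- mice spanned the WT range, and the log2 fold change was 0.02 (SE 0.13, 95% interval -0.26 to 0.31; edgeR adjusted p = 0.932). It was -0.10 without *Fmo5*-/- mouse 3. *Angptl6* shares 265 exon bases with *A230050P20Rik* on the other strand and *Inhbc* shares 268 with *Gm47200*, and reads in such bases were counted for neither gene. With the reads of 1 strand alone, the log2 fold change was 0.12 for *Angptl6* (edgeR adjusted p = 0.687) and -0.28 for *Inhbc*. That strand held 49.9% to 50.1% of the counts of both strands in each library, so its counts in shared bases can include reads of the other gene.

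Of the 12 tested genes for other ANGPTL proteins, their lipase targets and cofactors, 1 passed edgeR's test. At an unadjusted p under 0.05 there were 5, and DESeq2 called 4, 3 of them lower. *Lpl*, which encodes lipoprotein lipase, had 503, 513 and 505 normalized counts in WT mice and 1131, 1411 and 788 in *Fmo5*-/- mice, so it rose by 1.13 on the log2 scale (SE 0.19, edgeR adjusted p = 0.0431). The call was lost without any 1 WT mouse or without *Fmo5*-/- mouse 1, with adjusted p up to 0.13, and the log2 fold change ran from 0.92 to 1.32 without 1 library. *Lpl* is expressed in macrophages as well as adipocytes. Of 10 adipocyte markers, *Lpl* among them, 6 were tested, with 3 above 0 and 3 below, a median log2 fold change of -0.39, and 4 called by DESeq2, 3 of them lower. *Cidea*, a lipid droplet gene and the other one called by edgeR, had 87.9, 138 and 66.5 normalized counts in WT mice and 2.79, 1.84 and 1.96 in *Fmo5*-/- mice, and its log2 fold change of -5.39 (SE 0.44, edgeR adjusted p = 0.000849) was called in all 6 fits without 1 library. *Adipoq*, a defining adipocyte gene, had 40.2 normalized counts in WT mouse 1 and at most 7.34 in the others. The part of macrophages or adipocytes in the *Lpl* result was not tested. *Apoa5*, which encodes an apolipoprotein that lowers plasma triglyceride, had a log2 fold change of -1.02 (SE 0.21, edgeR adjusted p = 0.0588, DESeq2 adjusted p = 1.23e-05). For *Apoc3* it was -0.31 (edgeR adjusted p = 0.123, DESeq2 adjusted p = 0.0309). For *Gpihbp1* it was 0.31 (edgeR adjusted p = 0.175, DESeq2 adjusted p = 0.212). *Lipc*, *Lipg*, *Lmf1* and *Apoc2* had edgeR adjusted p of 0.327 or more.

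Per exon length, the 10 hepatokines spanned more than 2 orders of magnitude. *Ahsg* stood first with 2624 normalized CPM per kb of exon over the 6 libraries (CPM, counts per 1e6 counts), 13.4 times the level of *Fetub* at 196. *Lect2* followed at 138, *Angptl8* at 100.4, *Inhbc* at 33.6, *Tsku* at 19.1, *Angptl4* at 16.8, *Inhbe* at 10.2, *Angptl6* at 9.11 and *Gdf15* at 4.83. Neighbours in this order whose means differed by less than the larger of their SDs were *Lect2* and *Angptl8*, and *Angptl8* and *Inhbc*, in *Fmo5*-/- mice, *Tsku* and *Angptl4* in both genotypes, *Angptl4* and *Inhbe* in WT mice, and *Inhbe* and *Angptl6* in both. The annotation gives *Inhbe* 5319 exon bases, with an upstream exon that extends beyond the RefSeq start, and a shorter transcript would raise its level per length.

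**Figure D3:**
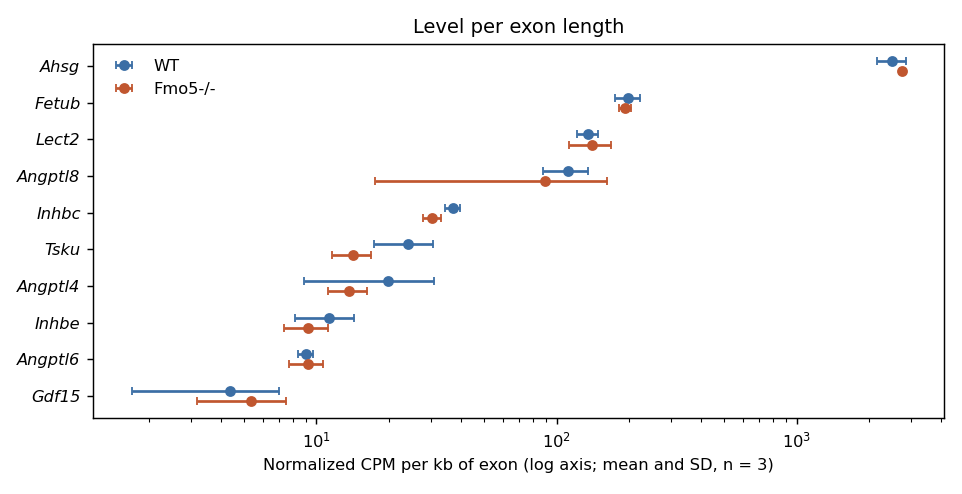
Normalized CPM per kb of exon (horizontal log axis; mean and SD, n = 3) of the 10 hepatokines in WT (blue) and *Fmo5*-/- (orange) mice, ordered by the mean over all 6. *Ahsg* lies far above the rest and *Gdf15* is lowest.

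The hepatokines differed in how much they varied between mice of one genotype. The biological coefficient of variation estimated by edgeR was 10% for *Inhbc*, 11.5% for *Fetub*, 11.9% for *Ahsg*, 12.6% for *Angptl6* and 13.9% for *Lect2*, close to or below the median of 13.9% over all genes tested. Among genes with a mean of 500 or more, however, 41.3% varied less than *Inhbc*, 71% less than *Fetub*, 75.5% less than *Ahsg*, 81.3% less than *Angptl6* and 88% less than *Lect2*. It was 18.2% for *Tsku*, 18.5% for *Inhbe*, 28.4% for *Angptl4*, 35.3% for *Gdf15* and 41% for *Angptl8*. Counting error was 4.75% or less for each. Of all genes tested, 97.3% varied less than *Gdf15* and 98.6% less than *Angptl8*.

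WT mouse 2 had the highest counts of the 6 for *Tsku*, *Inhbc*, *Inhbe* and *Angptl4* and the lowest for *Gdf15*. The same mouse was highest for 10 of 19 clock genes and lowest for 5, where it was highest for 18.8% and lowest for 20.3% of all genes tested. It had 1772 normalized counts of *Dbp* against 324 to 818 in the others, and 497 of *Arntl* against 948 to 1347. The livers were collected over several hours of the morning, and the part of collection time in these values was not tested. Over the 19 clock genes, edgeR called 0 between genotypes, with 3 at an unadjusted p under 0.05, and DESeq2 called 0. Without WT mouse 2 edgeR called 1.

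*Fmo5*-/- mouse 2 had the lowest *Angptl8*, *Inhbe* and *Angptl4* and the highest *Gdf15* and *Lect2*. It was highest for 22.5% and lowest for 22.3% of all genes tested. It was lowest for 17 of 23 genes of the insulin and carbohydrate response and for 9 of 19 clock genes. Of 26 acute phase genes it was highest for 11 and lowest for 6, and it was highest for 9 of 12 stellate cell and fibroblast markers and 9 of 11 lymphocyte and neutrophil markers. The part of feeding state or cell composition in these values was not tested.

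**Figure D4:**
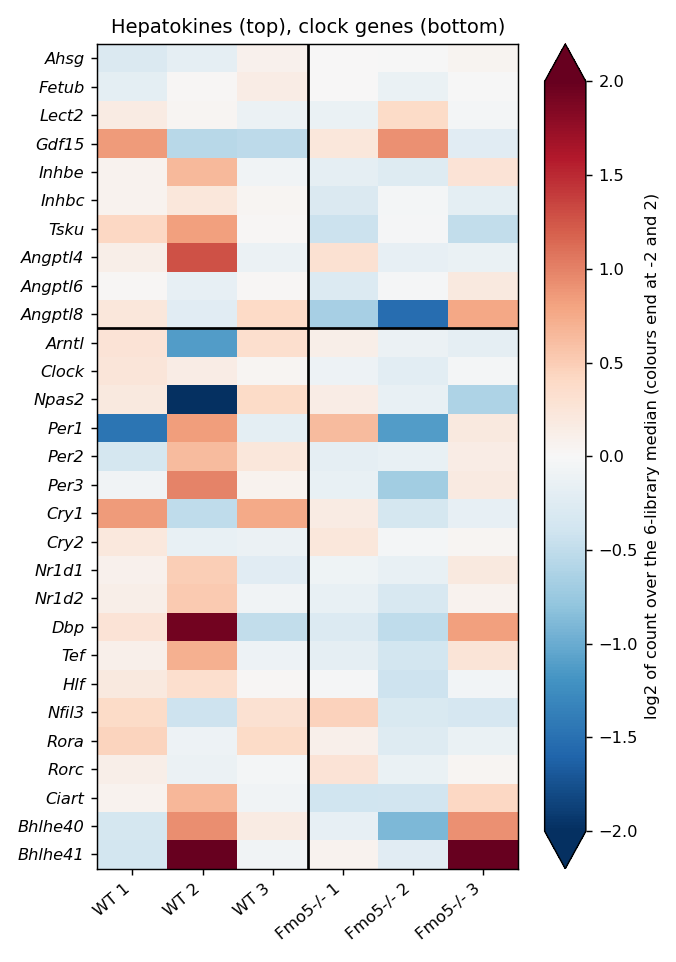
Log2 of each normalized count over the median of the 6 libraries (colour; scale ends at -2 and 2) for the 10 hepatokines (top) and 19 clock genes (bottom) in each mouse (columns). WT mouse 2 stands out for *Angptl4* and for *Arntl*, *Npas2* and *Dbp*, and *Fmo5*-/- mouse 2 for low *Angptl8*.

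Among 39 other secreted or hormone-like liver factors, 4 passed edgeR's test, 19 had an unadjusted p under 0.05 and DESeq2 called 13. *Igfbp2*, which encodes a binding protein of insulin-like growth factors, rose by 0.72 on the log2 scale (SE 0.10, adjusted p = 0.0151), from 16239, 15302 and 17257 normalized counts in WT mice to 28147, 24222 and 27867. *Fgf21*, which encodes a fasting hormone induced by PPARA and ATF4, had 157, 102 and 107 normalized counts in WT mice and 42.9, 14.7 and 41.2 in *Fmo5*-/- mice, and fell by 1.89 (SE 0.37, edgeR adjusted p = 0.0495). *Manf*, which encodes a secreted factor of the endoplasmic reticulum stress response, fell by 0.74 (SE 0.14, edgeR adjusted p = 0.0459). *Retsat*, which encodes a retinol saturase of the endoplasmic reticulum and so an enzyme rather than a secreted factor, fell by 0.77 (SE 0.15, edgeR adjusted p = 0.0495). The calls were not stable to the loss of a library: edgeR called none of the 39 without WT mouse 1 or without *Fmo5*-/- mouse 1, 1 without WT mouse 2, 2 without WT mouse 3, 4 without *Fmo5*-/- mouse 2 and 8 without *Fmo5*-/- mouse 3. In those 6 fits the log2 fold change stayed between 0.68 and 0.78 for *Igfbp2*, -2.13 and -1.53 for *Fgf21*, -0.93 and -0.64 for *Manf*, and -0.87 and -0.62 for *Retsat*.

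**Figure D5:**
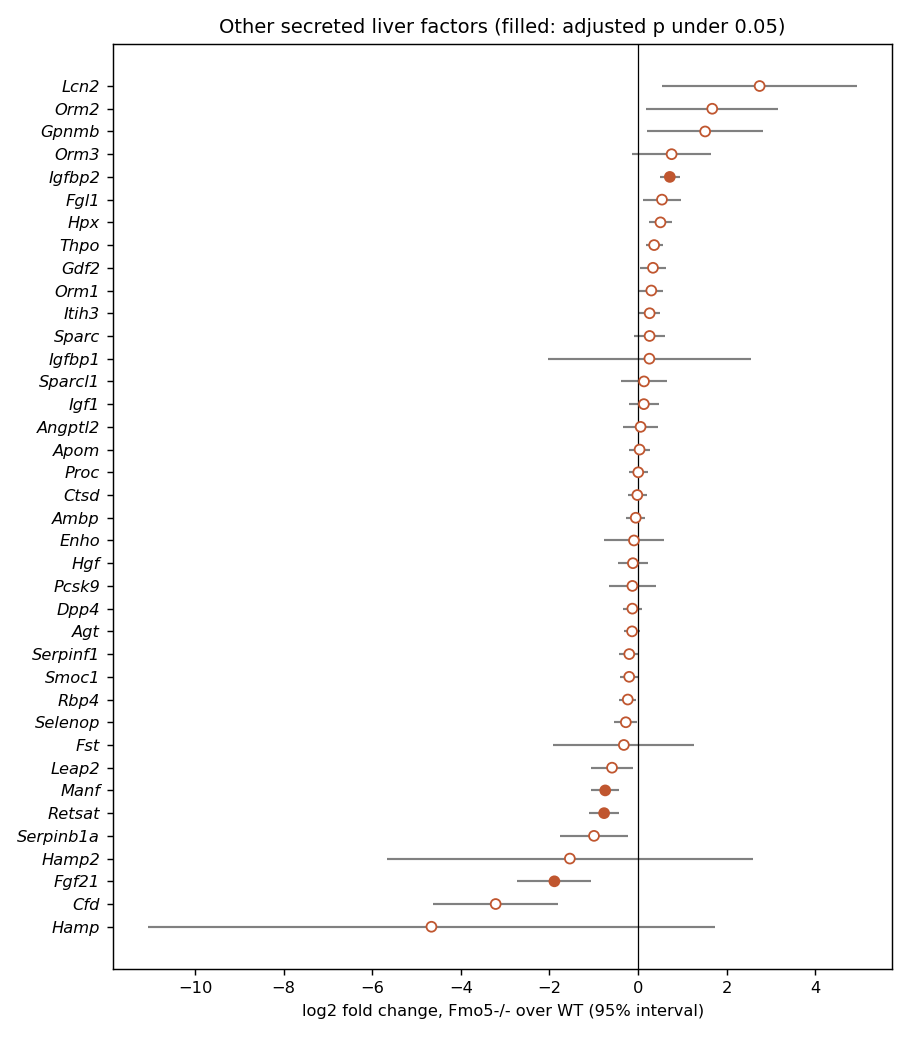
Log2 fold change, *Fmo5*-/- over WT (horizontal axis, with 95% interval), of other secreted or hormone-like liver factors, filled where the edgeR adjusted p was under 0.05. *Igfbp2* lies above 0, and *Manf*, *Retsat* and *Fgf21* below.

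Lists of targets and response genes of known regulators of the hepatokines were read in the same fit. Of 29 tested targets of PPARA, the receptor that induces *Angptl4* and *Fgf21*, 5 fell and 0 rose by edgeR, namely *Fitm1* (-0.89), *Cidec* (-1.31), *Slc25a20* (-0.44), *Cpt2* (-0.49) and *Fgf21*, and the median log2 fold change of the list was -0.41. WT mouse 1 stood apart, with the highest count of the 6 for 19 of the 29 targets, where it was highest for 17% of all genes tested, and WT mouse 3 was highest for 0. Of the 29, 18 had an unadjusted p under 0.05, and DESeq2 called 12 lower and 1 higher. Without 1 library, edgeR called between 1 and 4 of them, with 1 left without WT mouse 1, WT mouse 2 or *Fmo5*-/- mouse 1, and *Fitm1* was called in all 6 such fits. *Angptl4* was not in this list, and edgeR did not call it (adjusted p = 0.518). Of 28 targets of ATF4 and CHOP, which induce *Gdf15* and *Fgf21* under stress, only *Fgf21* passed edgeR's test, 7 had an unadjusted p under 0.05, DESeq2 called 3, all lower, and the median was -0.02. EdgeR called 0 of the 28 without WT mouse 2, WT mouse 3 or *Fmo5*-/- mouse 1. *Gdf15* was not among the 28. The 23 insulin and carbohydrate response genes had a median of -0.31, with 0 called by edgeR, 5 at an unadjusted p under 0.05 and 4 called by DESeq2. The 26 acute phase genes had a median of 0.25, with 0 called by edgeR, 8 at an unadjusted p under 0.05 and 5 called by DESeq2. Their median was 0.38 without WT mouse 2. Without 1 library, edgeR called between 0 and 2 of the acute phase genes, and between 0 and 2 of the insulin and carbohydrate response genes.

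Upstream sequence is shown for the genes without overlap between genotypes, *Tsku* and *Inhbc*, and for the most variable one, *Angptl8*. Each is the 250 bases before a start site in RefSeq on GRCm38.p6, 5′ to 3′ on the gene's strand, at chr7:98361329-98361578 (minus), chr10:127370549-127370798 (minus) and chr9:21835260-21835509 (plus). Capitals mark a match to TGATGNAA, the letters of the ATF4 response element, searched on both strands.
Tsku: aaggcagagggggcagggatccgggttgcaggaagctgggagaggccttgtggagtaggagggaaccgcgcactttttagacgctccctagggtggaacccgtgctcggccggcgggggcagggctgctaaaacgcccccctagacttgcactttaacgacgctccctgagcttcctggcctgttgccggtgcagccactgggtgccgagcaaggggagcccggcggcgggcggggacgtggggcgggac
Inhbc: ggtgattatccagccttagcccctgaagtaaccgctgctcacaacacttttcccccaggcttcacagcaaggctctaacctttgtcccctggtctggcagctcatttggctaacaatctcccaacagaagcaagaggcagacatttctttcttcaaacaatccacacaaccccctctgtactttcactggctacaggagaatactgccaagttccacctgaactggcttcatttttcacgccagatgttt
Angptl8: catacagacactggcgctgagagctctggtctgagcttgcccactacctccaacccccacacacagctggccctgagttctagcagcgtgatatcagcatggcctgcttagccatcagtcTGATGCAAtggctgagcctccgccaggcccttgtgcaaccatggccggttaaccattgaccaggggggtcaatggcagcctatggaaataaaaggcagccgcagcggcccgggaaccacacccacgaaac
The match in *Angptl8* starts at base -130 and overlaps no other motif searched. Another lay at base -181 of *Inhbe*, in a window that GENCODE vM21 places in the gene's first exon. Of all 32851 RefSeq windows of this length, 3.45% hold the letters. No match was found in *Tsku* or *Inhbc* to these letters, to the E-box CACGTG (6.02% of windows), to the D-box TTATGNAA (3.07%) or to the PPAR response element (0.0335%).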

How the data were processed

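Liver RNA of 6 mice was sequenced, 1 library each. The authors mapped reads to mm10 with STAR 2.6.0c and deposited raw counts per gene for both strands and each strand alone (other values, whole numbers). The authors also deposited a table of signal columns, raw counts divided by 1 DESeq2 1.22.2 size factor per library, used here only for symbols and to check the counts: the ratio of count to signal was constant within a library for genes with 5000 or more counts. Its DESeq2 fold changes, standard errors, statistics and p-values were not used.

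Genes kept by filterByExpr (minimum count 10) were scaled by TMM and compared by genotype with the robust quasi-likelihood test of edgeR 4.0.16 in R 4.3.3, with Benjamini-Hochberg adjustment over 16734 genes and calls at an adjusted p under 0.05. No covariate was used. Alternatives were DESeq2 1.42.0, other scalings and filters, 1 strand, and each library left out. Leaving out libraries was planned for the hepatokines' fold changes and counts and for the number of other secreted factors called. For all other values of gene lists, medians included, it was added after the data were seen. The fits were tested on simulated data. Levels per length used exon bases of GENCODE vM21, which holds 53229 of the 54446 identifiers in the same version. The authors' release is not given in the sources used here. RefSeq held promoters of 9 of the 10 hepatokines. Replicates are single mice, and intervals cover the spread between them.

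The genes named are the 10 hepatokines, *Fmo5*, and from each list those called by edgeR. The 3 genes of the activin and inhibin list with the smallest p were also named. So were the GDF15 receptor genes and some of the ANGPTL list. Of the other lists without a call, no gene was named for its p. *Adipoq*, *Dbp*, *Arntl*, *Npas2*, *Alb* and *Ttr* were added after their values were seen. The members and lists were chosen with earlier results of these data known. Some genes of the lists are counted but not reported by name here.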

Additional observations from a re-analysis of the deposited data

How the results depend on the processing

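The count of hepatokines called was 0 in every setting but 2: it was 1, *Tsku*, with DESeq2 in place of edgeR, and 1 by edgeR with no filter on low counts (*Tsku* adjusted p = 1.48e-05). All genes called numbered 229, against 1395 with DESeq2, 1989 with no filter, 53 with a mean of 500 or more before the fit, and 31 to 763 without 1 library. With no filter, all 34200 genes with a count were tested. Other secreted factors called numbered 13, 12 and 1 in those first 3 settings and 0 to 8 without 1 library. Hepatokines without overlap numbered 0 with the mean of 500, and 2 to 4 without 1 library. The share over all genes was not taken in those settings, and ranges of fewer mice are less likely to overlap. Between 5 and 7 hepatokines had a fold change below 0 over all settings. The causes were not tested. Without 1 library, the log2 fold change ran from -0.12 to 0.048 for *Fetub* (0.024 with the mean of 500), -0.12 to 0.15 for *Lect2*, -0.065 to 0.92 for *Gdf15*, -0.78 to 0.016 for *Angptl4*, -0.10 to 0.14 for *Angptl6* and -1.19 to 0.074 for *Angptl8*. *Tsku*, *Inhbc*, *Inhbe* and *Ahsg* kept their direction in all 12 settings. *Gdf15*, below that mean, was not fitted there. No paired analysis was possible because the labels give no replicate numbers shared between genotypes.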
